A study of Homo sapiens with 6 samples.

Results

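The interferon-stimulated genes and interferon-response factors STAT2, IRF1, IRF9, ISG15, IFIT1, IFIT2, IFIT3, IFI6 and IFIH1 were examined in SW480 cells exposed to MPM-1. These 9 genes were taken from the expression table by symbol. Of them, 8 were among the 12982 genes measured, and IFIT2 was not analysed here. SW480 is an established human colon adenocarcinoma line, labelled WT in all libraries. It was exposed for 24 h to MPM-1, a fluorescent compound made to accumulate in mitochondria, which the sample labels also call WT4. Control cells were exposed to DMSO, the solvent, for the same time. RNA sequencing was carried out on 3 libraries per treatment. The labels do not say whether these came from separate cultures, so the p-values measure the spread between libraries, which may be technical. The dose used for sequencing is not given in the sources used here, and a single line and a single time point were sequenced.

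Interferons are secreted proteins that bind receptors at the cell surface, where JAK kinases phosphorylate STAT proteins. Among them STAT2 acts with IRF9 in ISGF3, a complex that binds the interferon-stimulated response element (ISRE) in front of many antiviral genes, while other STAT dimers bind the gamma-activated site (GAS). In epithelial cells the same genes can be reached from inside the cell, through sensors of double-stranded RNA or of DNA that act on IRF3 and IRF7, and mitochondria are a known source of both nucleic acids. Intestinal epithelium uses this system against enteric viruses.

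The promoters of the 4 genes that passed the test below are shown because they carry the motifs by which this gene group is known. Each window runs from 250 bases before to 50 bases after the RefSeq transcription start (GRCh38.p14), and is written 5′ to 3′ on the strand of the gene. Capitals mark matches to the ISRE letters, which are GAAA, any 2 bases and GAAA, or TTTC, any 2 bases and TTTC when read on the other strand, or to the GAS letters TTCNNNGAA, which read alike on both strands. Overlapping matches appear as a single run of capitals. ISG15 lies on the plus strand at chr1:1013247-1013546, IFIT1 on the plus strand at chr10:89392373-89392672, IFI6 on the minus strand at chr1:27672143-27672442 and IRF9 on the plus strand at chr14:24161015-24161314.
ISG15: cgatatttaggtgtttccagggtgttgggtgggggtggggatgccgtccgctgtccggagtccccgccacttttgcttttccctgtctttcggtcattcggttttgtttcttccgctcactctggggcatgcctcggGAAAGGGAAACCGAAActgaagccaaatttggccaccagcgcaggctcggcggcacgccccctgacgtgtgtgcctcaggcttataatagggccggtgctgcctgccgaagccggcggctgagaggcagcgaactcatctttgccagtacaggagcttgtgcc
IFIT1: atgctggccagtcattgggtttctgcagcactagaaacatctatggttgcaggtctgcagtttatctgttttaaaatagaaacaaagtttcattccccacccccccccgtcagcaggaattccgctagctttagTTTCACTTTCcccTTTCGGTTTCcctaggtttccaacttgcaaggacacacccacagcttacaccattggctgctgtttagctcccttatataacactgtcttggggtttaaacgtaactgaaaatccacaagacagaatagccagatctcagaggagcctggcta
IFI6: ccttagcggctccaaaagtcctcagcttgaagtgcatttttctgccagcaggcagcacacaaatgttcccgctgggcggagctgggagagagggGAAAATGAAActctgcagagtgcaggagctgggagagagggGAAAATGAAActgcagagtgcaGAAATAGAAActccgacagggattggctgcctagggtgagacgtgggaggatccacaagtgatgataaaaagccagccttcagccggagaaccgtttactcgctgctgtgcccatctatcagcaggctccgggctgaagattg
IRF9: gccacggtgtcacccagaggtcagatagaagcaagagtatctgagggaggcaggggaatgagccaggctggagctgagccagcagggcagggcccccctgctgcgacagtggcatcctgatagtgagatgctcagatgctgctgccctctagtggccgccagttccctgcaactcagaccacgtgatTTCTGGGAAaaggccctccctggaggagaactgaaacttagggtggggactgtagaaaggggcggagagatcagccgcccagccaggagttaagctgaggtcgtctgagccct

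All 8 genes were found in the promoter table, IFIT3 with 2 starts, which gave 9 windows. ISRE matches were present in 6 of these 9 windows, those of ISG15, IFIT1, IFI6, IFIH1 and both starts of IFIT3, against 3.57% of all 35116 promoters. GAS matches were present in 2 of the 9 windows, those of IRF1 and IRF9, against 7.66% of all promoters. Among 119 promoters of the wider pathway lists read below, these 9 included, 33.6% held an ISRE match and 21.0% a GAS match. The share of GAS matches in the 9 windows, 22.2%, was thus near that of the wider lists. The window of STAT2 held neither. In ISG15 a pair of overlapping ISRE matches spanned bases -113 to -98 from the start. In IFIT1 the matches spanned bases -116 to -107 and -103 to -94. IFI6 held 3, at bases -156 to -147, -115 to -106 and -93 to -84. A match describes the letters only, and no binding was measured.

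**Figure D1:**
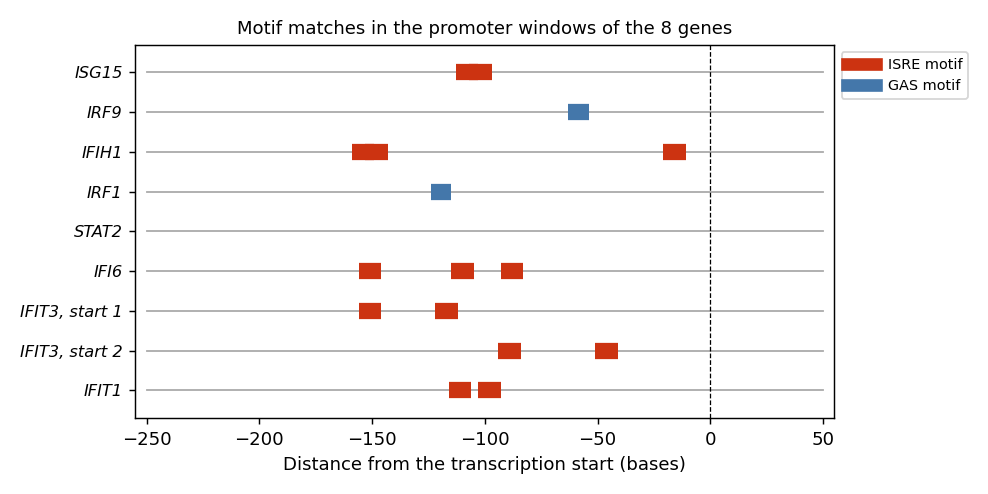
Position of motif matches (horizontal axis, bases from the transcription start) in the 9 promoter windows of the 8 genes (rows). Red blocks are ISRE matches and blue blocks are GAS matches. Red blocks lie upstream of the start in 6 windows, IRF1 and IRF9 have a blue block each, and STAT2 has none.

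Sequencing depth was similar in both treatments. The totals of counts ran from 32095456 to 40269820 in DMSO and from 31733667 to 35403841 after MPM-1, and a count of 0 would allow 3 counts, or 0.0695 to 0.0985 CPM (counts relative to library size), for counting error only. CPM values were scaled with TMM, a method that corrects library sizes for differences in composition. The transcripts of mitochondrial DNA took 8.28% to 9.11% of the counts in DMSO and 1.95% to 2.35% after MPM-1. With these genes left out of the scaling, each of the 8 genes kept its call or stayed short of it, with log2 fold changes of 1.38 for ISG15, 1.10 for IRF9, -1.62 for IFIT1 and -0.44 for IFI6. Of 10 colorectal epithelium markers 9 were measured. EPCAM stood at 676 ± 49.98 CPM (SD, n = 3 libraries) in DMSO and at 676 ± 33.3 CPM in the MPM-1 libraries, KRT8, KRT18, KRT19, CDH1 and LGALS4 rose, and CDX2, KRT20 and VIL1 fell. Of 6 leukocyte markers only CD14 and CD68 were measured, and they moved in opposite directions. CD14 fell from 9.38 ± 0.646 to 3.70 ± 1.49 CPM (adjusted p = 0.00315, edgeR), and CD68, a lysosomal protein, rose from 68.3 ± 15.5 to 145 ± 8.62 CPM (adjusted p = 0.000165). Their sum, most of it CD68, ran from 67.2 to 94.6 CPM in DMSO and from 141 to 155 CPM after MPM-1. Of 7 fibroblast and endothelial markers only COL1A1 and PDGFRB were measured, with a sum of 4.79 to 5.47 CPM in DMSO and 2.00 to 2.89 CPM after MPM-1. The part of either in the results was not tested. In such bulk libraries, fewer cells expressing a gene and less RNA per cell cannot be told apart.

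The 8 genes did not move as a block after MPM-1. ISG15 and IRF9 rose, IFIT1 and IFI6 fell, and STAT2, IRF1, IFIT3 and IFIH1 did not pass the test, which was an adjusted p under 0.05 in the quasi-likelihood test of edgeR, with Benjamini-Hochberg adjustment over all genes. Among all genes tested 56.5% passed, 27.7% higher and 28.8% lower, so that 4 of 8 is near the background and says nothing particular about the group. A stricter call, termed DEG here, needs an adjusted p under 0.01 together with a change of 1 or more, up or down, on the log2 scale. ISG15 was the only higher DEG and IFIT1 the only lower DEG of the 8, where 5.58% and 8.75% of all genes were called. The median log2 fold change of the 8 genes was -0.016, and that of all genes was -0.026. With IRF9 and the gene that spans it counted as a single unit, as described below, 1 of the 8 genes rose.

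ISG15 encodes a ubiquitin-like protein that is attached to other proteins and is also secreted. It had 282, 165 and 191 CPM in DMSO replicates 1 to 3, and 635, 464 and 563 CPM in MPM-1 replicates 1 to 3. Every MPM-1 library lay above every DMSO library, which was so for 31% of all genes. The mean rose from 213 ± 61.7 to 554 ± 85.6 CPM (SD, n = 3 libraries each), 2.61-fold with a 95% interval of 1.95 to 3.49 (adjusted p = 0.000224, edgeR). ISG15 (ENSG00000187608) spans bases 1001138 to 1014540 of chromosome 1 in GENCODE 29. Its log2 fold change of 1.38 stayed between 1.23 and 1.64 in the 17 alternative settings, and the call was kept in each.

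IFIT1 encodes an antiviral protein that binds viral RNA by its 5′ end. Its values were 21.3, 17.04 and 15.4 CPM in the DMSO libraries, and 4.37, 6.86 and 6.22 CPM after MPM-1. The lowest DMSO library was thus still above the highest MPM-1 library, as it was for 33.3% of all genes. On average it fell from 17.9 ± 3.05 to 5.82 ± 1.30 CPM (SD, n = 3 each), 3.08-fold, with a log2 fold change of -1.62 (95% interval -2.08 to -1.17, adjusted p = 0.000136, edgeR). The alternative settings gave -1.83 to -1.44. IFIT1 (ENSG00000185745, chromosome 10, 89392546 to 89406486) lies within the span of LIPA on the other strand, and whether the counting used strand is not given in the sources used here. LIPA had 57.4, 74.1 and 77.1 CPM in DMSO and 63.6, 62.1 and 65.2 CPM after MPM-1.

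IFIT3 encodes a partner that stabilizes IFIT1 on RNA. It was close to the lower end of what was measured, with 50, 58 and 53 counts in DMSO and 31, 16 and 28 counts after MPM-1. In CPM these were 1.52, 1.34 and 1.33 against 1.02, 0.520 and 0.834. The groups did not overlap, which was so for 64.3% of all genes. The log2 fold change was -0.82 (95% interval -1.60 to -0.034) and did not pass after adjustment (adjusted p = 0.0708, edgeR). It passed with scaling by library size alone and with limma on unfiltered FPKM (fragments relative to transcript length and library size). IFIT3 (ENSG00000119917, chromosome 10, 89327894 to 89340971) also lies within the span of LIPA.

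IFI6 encodes a small hydrophobic protein known to counter apoptosis. DMSO libraries held 48.2, 47.4 and 54.4 CPM, and MPM-1 libraries held 32.9, 43.4 and 34.6 CPM. All MPM-1 libraries were lower, as they were for 33.3% of all genes, with MPM-1 replicate 2 nearest to the controls. The mean fell from 50.01 ± 3.85 to 37.0 ± 5.66 CPM (SD, n = 3 each), with a log2 fold change of -0.44 (95% interval -0.70 to -0.18, adjusted p = 0.00985, edgeR), a 1.35-fold difference. IFI6 (ENSG00000126709, chromosome 1, 27666061 to 27672218) passed in each of the alternative settings, at -0.60 to -0.34.

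**Figure D2:**
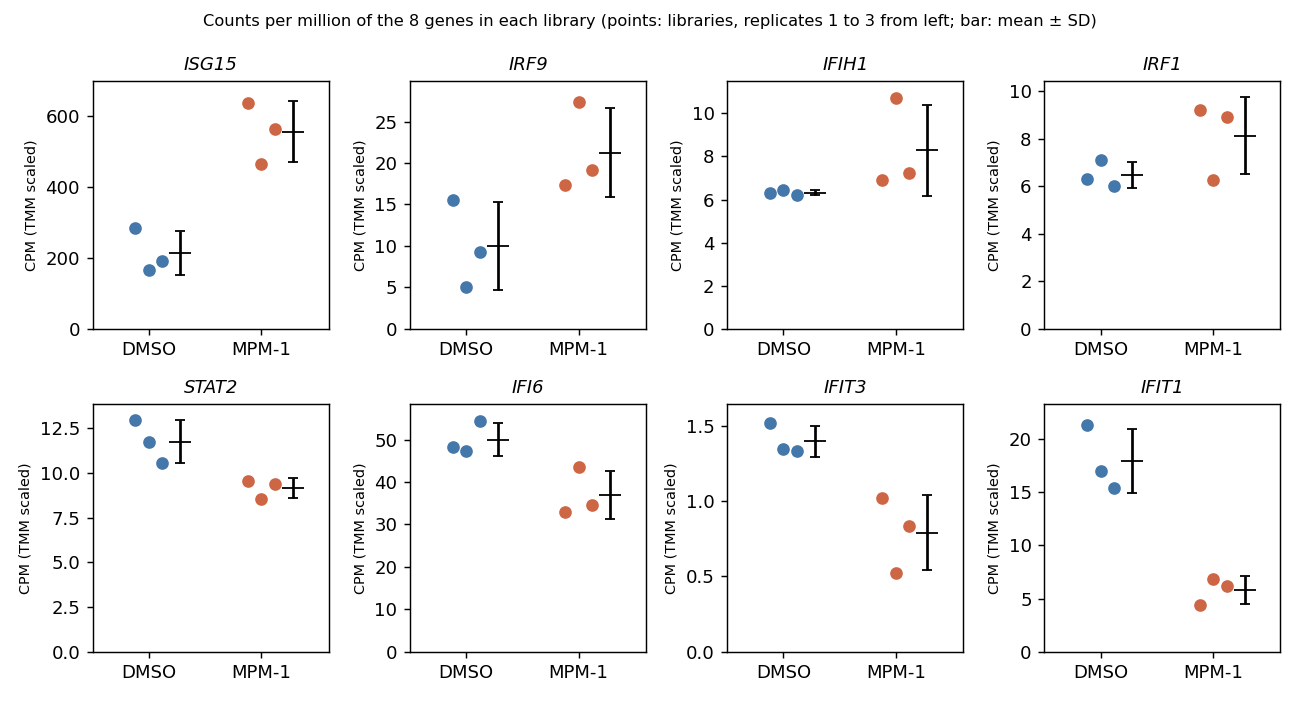
CPM after TMM scaling (vertical axes, linear, from 0) of the 8 genes in DMSO and MPM-1 libraries. Points are libraries, replicates 1 to 3 from left to right, and bars are means ± SD of 3 libraries. ISG15 lies between 165 and 282 CPM in DMSO and between 464 and 635 CPM after MPM-1, IFIT1 lies lower after MPM-1, and IRF1 overlaps between the treatments.

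The ratio between ISG15 and IFIT1 counts within a library does not depend on scaling. It was 13.2, 9.65 and 12.4 in the DMSO libraries and 145, 67.7 and 90.4 in the MPM-1 libraries. The ratio was thus 8.26-fold larger after MPM-1 (geometric means). For ISG15 over IFI6 it was 5.85, 3.47 and 3.51 in DMSO and 19.3, 10.7 and 16.3 after MPM-1, 3.61-fold larger. Both ratios pair the gene called higher with a gene called lower and are a description. An exact permutation of the libraries gave p = 0.1 for each ratio. With 3 libraries per treatment this p cannot be lower, so nothing is drawn from it. All 3 genes hold ISRE matches in the promoters shown above.

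IRF9, the DNA-binding part of ISGF3, had 15.6, 5.00 and 9.24 CPM in DMSO and 17.3, 27.3 and 19.2 CPM after MPM-1. DMSO libraries differed among themselves more than for any other of the 8 genes, with FPKM 2.88-fold apart. The log2 fold change was 1.10 (95% interval 0.33 to 1.88, adjusted p = 0.0212, edgeR), and the call was lost without DMSO replicate 3 (adjusted p = 0.0603) and without MPM-1 replicate 2 (adjusted p = 0.0651). IRF9 (ENSG00000213928, chromosome 14, 24161053 to 24166565) lies wholly within AL136295.5 on the same strand, so the counting could divide reads between them. AL136295.5 had 597, 1097 and 983 counts in DMSO and 505, 334 and 290 counts after MPM-1, where IRF9 had 513, 216 and 368 counts and 527, 841 and 643 counts. IRF9 thus took 46.2%, 16.5% and 27.2% of the joint counts in DMSO and 51.1%, 71.6% and 68.9% after MPM-1. AL136295.5 on its own fell (log2 fold change -0.92, adjusted p = 0.00731, edgeR).

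Summed over both genes, a setting chosen after seeing the data, the locus stood at 33.7, 30.4 and 33.9 CPM in DMSO and at 33.9, 38.2 and 27.8 CPM after MPM-1. The groups overlapped fully, and the log2 fold change of the sum was 0.027 (95% interval -0.24 to 0.30, adjusted p = 0.863, edgeR). The rise of IRF9 and the fall of AL136295.5 thus stood beside a joint count that did not pass, and the rise of IRF9 is uncertain. None of the other 7 genes overlapped a measured gene on its own strand.

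STAT2, the partner of IRF9 in ISGF3, had 12.98, 11.7 and 10.6 CPM in DMSO and 9.55, 8.52 and 9.41 CPM after MPM-1. Each MPM-1 library was below each DMSO library, which was so for 33.3% of all genes. The difference was small and did not pass after adjustment (log2 fold change -0.36, 95% interval -0.69 to -0.028, adjusted p = 0.0623, edgeR). It passed in 5 of the 17 alternatives, namely limma on FPKM with each pseudocount and filter, and library sizes used without TMM. STAT2 (ENSG00000170581) lies on chromosome 12, 56341597 to 56360155.

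IRF1, a factor that responds to interferon-gamma and to inflammatory signals, had 6.31, 7.11 and 6.03 CPM in DMSO and 9.22, 6.28 and 8.90 CPM after MPM-1. The treatments overlapped, with MPM-1 replicate 2 inside the DMSO range. The log2 fold change was 0.33 (95% interval -0.11 to 0.76, adjusted p = 0.177, edgeR), and without MPM-1 replicate 2 it was 0.51 and passed (adjusted p = 0.0367). IRF1 (ENSG00000125347, chromosome 5, 132481609 to 132490798) lies within AC116366.3 on the other strand, which had 454 counts in DMSO replicate 1 and 17 to 69 counts in the other libraries.

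IFIH1 encodes MDA5, a cytosolic sensor of long double-stranded RNA. Its 3 DMSO libraries were nearly alike at 6.31, 6.46 and 6.20 CPM, and the MPM-1 libraries had 6.89, 10.7 and 7.24 CPM. In CPM all MPM-1 libraries were higher, which was so for 31% of all genes, and MPM-1 replicate 2 was well above the other 2. In FPKM the groups overlapped, with 1.765, 1.890 and 1.791 in DMSO and 1.755, 2.872 and 1.887 after MPM-1. The log2 fold change of 0.39 did not pass (95% interval -0.064 to 0.84, adjusted p = 0.128, edgeR), and without MPM-1 replicate 2 it was 0.19. IFIH1 (ENSG00000115267) spans bases 162267079 to 162318703 of chromosome 2.

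**Figure D3:**
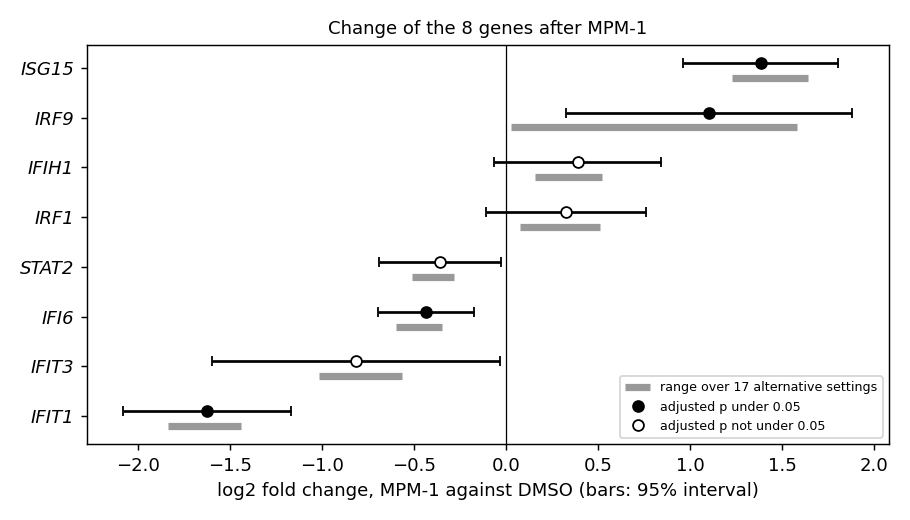
Log2 fold change of the 8 genes after MPM-1 against DMSO (horizontal axis). Points with bars are edgeR estimates with 95% intervals, filled where the adjusted p was under 0.05, and grey bars are the range over the alternative settings. The grey bar of IRF9 reaches down to 0.027, the value of its sum with AL136295.5, while those of ISG15 and IFIT1 stay at or beyond 1.23 in size.

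Levels between genes were compared by FPKM, which accounts for transcript length. In DMSO, ISG15 stood highest at 337 ± 90.8 FPKM, followed by IFI6 at 61.2 ± 5.19, IFIT1 at 9.08 ± 1.14, IRF9 at 6.97 ± 3.50, STAT2 at 3.68 ± 0.317, IRF1 at 1.91 ± 0.157, IFIH1 at 1.82 ± 0.0657 and IFIT3 at 0.568 ± 0.0274 FPKM (SD, n = 3 libraries each). The ranges of IFIT1 and IRF9, of IRF9 and STAT2, and of IRF1 and IFIH1 overlapped, and those of the other neighbours did not. After MPM-1 the order was ISG15 at 794 ± 108, IFI6 at 40.8 ± 7.005, IRF9 at 12.9 ± 2.66, IFIT1 at 2.61 ± 0.751, STAT2 at 2.59 ± 0.114, IFIH1 at 2.17 ± 0.610, IRF1 at 2.08 ± 0.380 and IFIT3 at 0.283 ± 0.0848 FPKM. IFIT1, STAT2, IFIH1 and IRF1 overlapped in this order from neighbour to neighbour. The library-to-library spread was largest for IRF9 in DMSO, with a coefficient of variation of 50.2%, and smallest for IFIH1 in DMSO, at 3.62%.

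The wider pathway was then read from lists of receptors, factors, sensors, effectors and inhibitors. Of 141 further genes on these lists 106 were measured, and they too moved in both directions. Of these, 29 rose (27.4%, against 27.7% of all genes) and 34 fell (32.1%, against 28.8%). Higher and lower DEGs numbered 6 each, where 5.58% and 8.75% of all genes were so called. The median log2 fold change of the 106 genes was -0.022, near the -0.026 of all genes. With scaling by library size alone 22 rose and 40 fell, while 19.9% of all genes rose and 37.5% fell. Without DMSO replicate 2 the number that fell was 22 (20.8%), against 23.7% of all genes, and higher DEGs numbered 11 without DMSO replicate 1 or without MPM-1 replicate 2. The share of higher DEGs among all genes was not computed for those removals, so these 11 cannot be judged. With limma on log2(FPKM + 0.1) at a mean of at least 1 FPKM, 19 of 93 rose, which was 20.4%, as it was among all genes. None of the 9 interferon genes listed (IFNA1, IFNA2, IFNB1, IFNE, IFNG, IFNK, IFNL1, IFNL2 and IFNL3) was in the table, in which every gene had a total of at least 115 counts, and their levels were not analysed here.

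**Figure D4:**
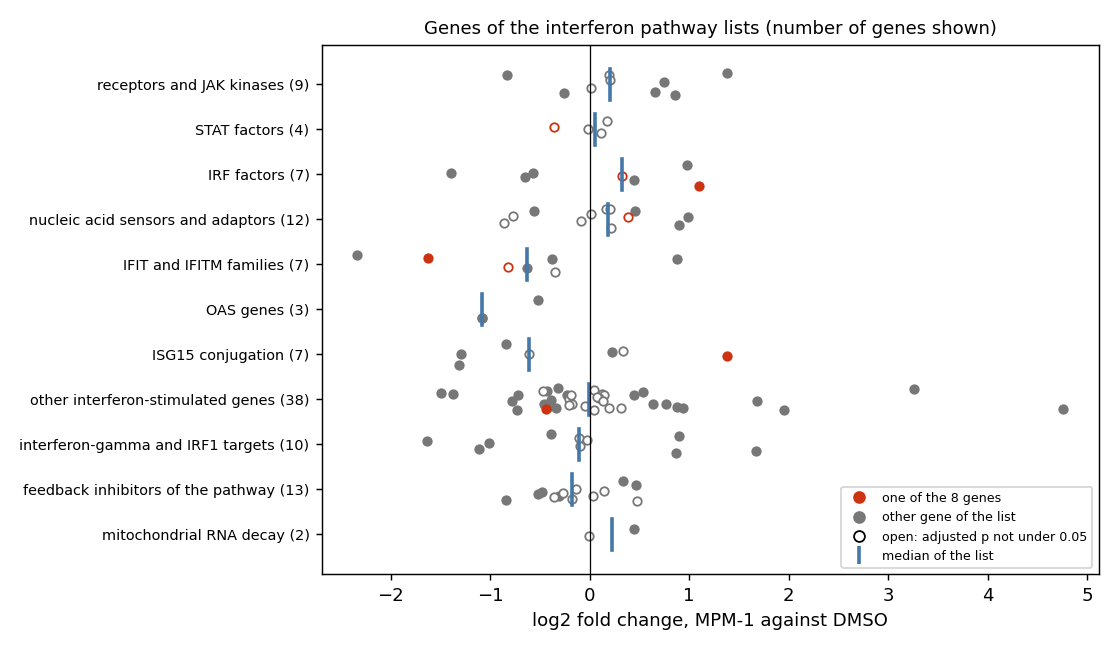
Log2 fold change after MPM-1 against DMSO (horizontal axis) of genes in 11 lists of the interferon pathway (rows, with the number of genes). Red points are the 8 genes, filled points had an adjusted p under 0.05, and vertical bars are list medians. The 3 OAS genes lie at or below -0.52, whereas each of the other 10 lists holds points on both sides of 0.

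Of the 9 receptor and kinase genes 4 rose (44.4%, against 27.7% of all genes) and 2 fell (22.2%, against 28.8%), and these small counts were not tested. Both chains of the interferon-gamma receptor rose, IFNGR1 from 67.0 ± 5.94 to 113 ± 6.59 CPM (log2 fold change 0.75, adjusted p = 9.21e-05, edgeR) and IFNGR2 from 107 ± 8.75 to 194 ± 9.50 CPM (0.86, adjusted p = 2.94e-05). Of the type I receptor, IFNAR2 fell from 26.0 ± 2.72 to 14.6 ± 1.597 CPM (-0.83, adjusted p = 0.000423), and IFNAR1 had 41.5 ± 3.54 and 41.8 ± 3.56 CPM (0.012, a sign that flips with library size alone and with FPKM). JAK1, the kinase shared by these receptors, rose from 53.3 ± 4.34 to 139 ± 12.7 CPM (1.38, adjusted p = 4.08e-06). It was the only DEG of the 9, where 5.58% of all genes were higher DEGs. JAK2 rose (0.66, adjusted p = 0.00569). TYK2 fell (-0.25, adjusted p = 0.0347), a call that was lost in 7 of 17 alternatives. IFNLR1 and IL10RB, the chains of the type III receptor, had log2 fold changes of 0.20 and 0.21 that did not pass (adjusted p of 0.238 and 0.0572).

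Of the STAT genes other than STAT2, STAT3, STAT5B and STAT6 did not pass the test and had log2 fold changes of 0.12, -0.018 and 0.17 (adjusted p of 0.365, 0.874 and 0.264, edgeR). STAT3 turned negative with scaling by library size alone, STAT5B turned positive with DESeq2 size factors, and STAT6 turned negative with limma on FPKM. Of the 8 IRF genes measured 4 rose (50%, against 27.7% of all genes) and 3 fell (37.5%, against 28.8%). These small counts were not tested, and they include genes not reported here by name. Among the IRF genes other than IRF1 and IRF9, IRF7 and IRF5 rose and IRF8, IRF3 and IRF2 fell. IRF7, the main amplifier of type I interferon, went from 46.2 ± 10.8 to 91.0 ± 11.9 CPM (0.98, adjusted p = 0.000649). IRF3, which acts ahead of it and is usually constant in level, went from 105 ± 15.2 to 66.7 ± 9.80 CPM (-0.65, adjusted p = 0.00201). IRF8, a factor best known from immune cells, went from 38.7 ± 2.03 to 14.8 ± 0.343 CPM (-1.39, adjusted p = 3.31e-06). IRF2, a repressor that competes with IRF1, had -0.56 (adjusted p = 0.00893), and IRF5 had 0.45 (adjusted p = 0.0123). IRF5 did not pass with scaling by library size alone.

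Among 12 sensors and adaptors, 3 rose (25%, against 27.7% of all genes) and 1 fell (8.33%, against 28.8%). TRIM25, a ubiquitin ligase acting on RIG-I, rose from 54.9 ± 3.25 to 109 ± 8.07 CPM (log2 fold change 0.99, adjusted p = 1.48e-05, edgeR). TICAM1, the adaptor of TLR3, rose from 54.0 ± 9.99 to 100 ± 15.5 CPM (0.89, adjusted p = 0.00066). CGAS, the cytosolic DNA sensor, went from 6.69 ± 0.527 to 9.19 ± 0.664 CPM (0.46, adjusted p = 0.0322), and this call was lost in 11 of 17 alternatives. DDX58, which encodes RIG-I, went from 12.8 ± 3.39 to 8.70 ± 0.802 CPM (-0.56, adjusted p = 0.0354), and its call was lost without DMSO replicate 1 (adjusted p = 0.128), without MPM-1 replicate 1 or 3, and with the replicate number as a block. Of the pair of mitochondrial RNA decay enzymes, SUPV3L1 rose (0.45, adjusted p = 0.00116) and PNPT1 had -0.0044 (adjusted p = 0.973).

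In the IFIT and IFITM families, antiviral effectors, 4 of 7 fell, IFITM1, IFIT1, IFITM2 and IFITM3, where 28.8% of all genes did. IFIT3, given above, and IFIT5 (log2 fold change -0.34, adjusted p = 0.421, edgeR) did not pass, and 1 rose, IFITM10 (0.88, adjusted p = 0.0478, edgeR), which no longer passed when summed with AC068580.4 on its strand (adjusted p = 0.104). IFITM1, a membrane protein that blocks virus entry, had 229, 282 and 312 counts in DMSO and 47, 45 and 41 counts after MPM-1 (log2 fold change -2.33, adjusted p = 2.21e-05, edgeR). It overlaps IFITM2 on the same strand and the 3 IFITM genes are close copies, so their shares are uncertain. The sum of IFITM1 and IFITM2 also fell (-0.77, adjusted p = 3.10e-05). IFITM3 had -0.38 (adjusted p = 0.00297). The oligoadenylate products of OAS1 and OAS3 start the decay of RNA in infected cells. Of the OAS family, OASL, OAS3 and OAS1 fell, where 28.8% of all genes did. Their log2 fold changes were -1.08, -1.08 and -0.52 (adjusted p of 0.000468, 0.000712 and 0.0098, edgeR).

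Of the 7 genes on the list of ISG15 conjugation, 2 rose, ISG15 and ARIH1 (28.6%, against 27.7% of all genes). UBA7, UBE2L6 and USP18 fell (42.9%, against 28.8%), HERC5 and HERC6 did not pass, and these small counts were not tested. UBA7, which activates ISG15, had 51, 102 and 68 counts in DMSO and 35, 14 and 22 after MPM-1, a log2 fold change of -1.32 (adjusted p = 0.0175, edgeR). UBE2L6, which conjugates it, had 68, 106 and 84 counts in DMSO and 44, 26 and 14 after MPM-1 (-1.30, adjusted p = 0.0232). USP18, which removes it from proteins and also restrains the type I receptor, went from 20.6 ± 1.87 to 11.5 ± 0.153 CPM (-0.84, adjusted p = 0.000309). HERC6 and HERC5, which encode ligases of the HERC family, had -0.61 and 0.33 and did not pass (adjusted p of 0.0518 and 0.412). ARIH1, a ligase that works with several conjugating enzymes, rose (0.23, adjusted p = 0.0272), a call lost in 8 of 17 alternatives. The calls of UBA7 and UBE2L6 were lost without DMSO replicate 2 (adjusted p of 0.0751 and 0.0721), without MPM-1 replicate 2 (0.0546 and 0.0597) and without MPM-1 replicate 3 (0.0609 and 0.0634), and that of USP18 was kept in all 17.

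Of 38 other interferon-stimulated genes, 10 rose (26.3%, against 27.7% of all genes) and 13 fell (34.2%, against 28.8%). All 4 DEGs among them were higher, where 5.58% of all genes were higher DEGs and 8.75% lower DEGs. LAMP3, a lysosomal membrane protein that stress pathways can also induce, had 23, 92 and 79 counts in DMSO and 1467, 1258 and 1491 after MPM-1 (log2 fold change 4.76, adjusted p = 2.27e-06, edgeR). RSAD2, which encodes the antiviral enzyme viperin, had 21, 23 and 6 counts in DMSO and 142, 110 and 147 after MPM-1 (3.26, adjusted p = 0.000211). IFI16, a nuclear DNA sensor, had 18, 14 and 16 counts against 57, 53 and 44 (1.95, adjusted p = 0.00147). ISG20, an exonuclease, was the fourth DEG (1.69, adjusted p = 7.08e-05). The largest falls were in TRIM22 (-1.50, adjusted p = 0.0246), TRIM14 (-1.37, adjusted p = 0.0289) and SP110 (-0.78, adjusted p = 0.0277). The fall of TRIM22 was not past the threshold without any 1 of the DMSO libraries, MPM-1 replicate 2 or MPM-1 replicate 3 (highest adjusted p = 0.0642), that of TRIM14 without any 1 of the DMSO libraries or with DESeq2 (0.081), and that of SP110 in each removal of a library except DMSO replicate 1 (0.113).

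Targets of interferon-gamma and IRF1 also moved in both directions, as all genes did. Of 10, 3 rose (30%, against 27.7% of all genes) and 4 fell (40%, against 28.8%). WARS, a tryptophanyl-tRNA synthetase that is also induced by amino acid stress, rose from 104 ± 4.19 to 333 ± 14.6 CPM (log2 fold change 1.68, adjusted p = 5.01e-07, edgeR). NLRC5, the activator of class I antigen presentation, and the adhesion molecule ICAM1 rose by 0.90 and 0.87 (adjusted p of 0.00149 and 0.000255). GBP2, a guanylate-binding protein, fell from 4.93 ± 0.77 to 1.59 ± 0.459 CPM (-1.63, adjusted p = 0.000751), and PSMB9, an immunoproteasome subunit, fell from 9.05 ± 0.66 to 4.18 ± 0.305 CPM (-1.12, adjusted p = 0.000419). CIITA, the activator of class II genes, fell as well (-1.01, adjusted p = 0.0139), but not past the threshold without DMSO replicate 3 (0.0504). PSMB8, another immunoproteasome subunit, had -0.39 (adjusted p = 0.00794). PSMB9 overlaps PSMB8 and TAP1 on the other strand. Other named genes also overlap a measured gene on the other strand, among them IRF3, JAK1, IFNGR2, TRIM14, TRIM22, CIITA, PIAS3 and WARS. The effect of such overlaps on the counts was not tested. Among 13 inhibitors of the pathway 2 rose (15.4%, against 27.7% of all genes) and 4 fell (30.8%, against 28.8%). The phosphatases PTPN2 (0.47, adjusted p = 0.00233) and PTPN11 (0.34, adjusted p = 0.00926) rose. USP18, SOCS2 (-0.52, adjusted p = 0.000873), PIAS3 (-0.48, adjusted p = 0.00401) and PTPN6 (-0.30, adjusted p = 0.0237) fell. The call of PTPN11 was lost in 5 of 17 alternatives, namely those with limma on FPKM and with library sizes used without TMM.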

How the data were processed

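The authors deposited 1 table with, for each of 12982 genes, the raw count and the FPKM in each of 6 libraries, 3 for DMSO and 3 for MPM-1, prepared with an mRNA kit. The submitters' processing notes name HISAT2, DESeq2 and the mouse build mm10. The identifiers in the table are human Ensembl genes, and the counting, its use of strand and the annotation are not given in the sources used here. The table also holds a fold change and an FDR of the study's own comparison, which were not used. Deposited counts were tested with edgeR 4.0.16 (R 4.3.3) by its quasi-likelihood test with TMM scaling and no covariates, over all genes, because none needed to be removed. Deposited FPKM served for levels between genes and, with limma 3.58.1, as an alternative. DESeq2 1.42.0 was another. Standard errors behind the 95% intervals were derived from the F statistic. Positions and overlaps came from GENCODE 29 (GRCh38), and promoters from RefSeq. Libraries of a treatment differed by more than counting noise (chi-square per gene of 15.4 to 33.2), so none were merged as a single library. The genes, lists and thresholds were chosen with earlier results of these data known. Named genes were the 9 members, all measured genes of the STAT, IRF and receptor lists and, in each list, up to 3 rises and 3 falls of the largest size past an adjusted p under 0.05 without overlap of the groups. CD14, CD68, HERC5, HERC6, IFIT5, ISG20, PSMB8, PTPN6, IFITM10, PNPT1, AL136295.5, LIPA and AC116366.3 were named after their values were seen. A few genes of these lists are counted in the totals but not reported here by name or drawn in the plot of lists. All columns holding values of a sample were mapped to one.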

Additional observations from a re-analysis of the deposited data

How the results depend on the processing

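In the 17 alternatives, none of the 8 genes changed direction, and ISG15, IFIT1 and IFI6 kept their calls. Of the 8 genes, 4 fell with scaling by library size alone and with limma on unfiltered log2(FPKM + 0.1), where the main test gave 2. Among all genes 37.5% and 35.4% fell in these 2 settings, against 28.8% in the main test. When single libraries were left out, 1 to 2 rose (1 without DMSO replicate 3), 2 fell in each case and higher DEGs numbered 1 to 2 (2 without DMSO replicate 1). Among all genes 23.3% to 27.8% rose and 23.7% to 27.5% fell in these removals, and the shares of DEGs were not computed. Summing genes that overlap on the same strand, a setting chosen after seeing the data, left 1 that rose, where 27.7% of all genes did. The median of the 8, close to 0, is not stable. It was 0.00435 with DESeq2 size factors, 0.00460 with DESeq2, 0.32 with a mean of at least 50 counts, and 0.11, 0.077 and 0.11 with limma on filtered FPKM at pseudocounts of 0.1, 1 and 0.01, where IFIT3 was filtered out in these last 4. It was -0.17 with library size alone, -0.19 with unfiltered FPKM, -0.17 with overlapping genes summed, and -0.0498 to 0.0195 with single libraries left out (0.0123 without DMSO replicate 1 and 0.0195 without DMSO replicate 2). Library size alone moved the median of all genes from -0.026 to -0.18, and limma on FPKM moved it to between -0.17 and -0.13. For the 106 further genes the median was -0.00263 with DESeq2 size factors, -0.00276 with DESeq2, -0.17 with library size alone, -0.15, -0.14 and -0.15 with filtered FPKM at these pseudocounts, -0.17 with unfiltered FPKM, and -0.0398 to -0.00617 with single libraries left out. Of them 19 of the 93 tested rose with filtered FPKM (20.4%, against 20.4% to 20.5% of all genes). With single libraries left out 25 to 30 rose (23.6% to 28.3%, against 23.3% to 27.8% of all genes). Those that fell numbered 22 to 30 (20.8% to 28.3%, against 23.7% to 27.5%). Higher DEGs numbered 6 to 11 and lower DEGs 5 to 8, with the shares among all genes not computed. Genes that had not passed changed sign near 0, with the cause not tested. IFNAR1 was at -0.14 with library size alone, -0.14, -0.12 and -0.14 with filtered FPKM, -0.14 with unfiltered FPKM, and -0.0279 to 0.0858 with single libraries left out, below 0 without DMSO replicate 1 (-0.0204), without DMSO replicate 3 (-0.0251) and without MPM-1 replicate 2. STAT3 was at -0.034 with library size alone. STAT6 was at -0.0114, -0.00939 and -0.0117 with filtered FPKM and -0.0114 with unfiltered FPKM. STAT5B was at 0.00223 with DESeq2 size factors, 0.00215 with DESeq2, and -0.0328 to 0.0240 with single libraries left out (0.0123 without MPM-1 replicate 2, 0.0240 without MPM-1 replicate 3). The replicate numbers did not pair the libraries (correlations of deviations of 0.057, 0.11 and -0.092 for replicates 1, 2 and 3). With the replicate block, 2 of the 8 genes rose and 2 fell, and 28 and 30 of the further genes did (26.4% and 28.3%). Among all genes 26.8% rose and 28.1% fell with this block. Depth limits IFIT3, UBA7, TRIM22, IFI16 and RSAD2, which had few counts per library.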
